A study of Mus musculus with 7 samples.

Results

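Ribosome biogenesis factors are the proteins that transcribe, modify, cut and assemble ribosomal RNA in the nucleolus, and 36 of their genes were followed here across 7 RNA-seq libraries. The members were taken by gene symbol from a named list that was chosen with earlier results of these data known. All 36 were found among the 34305 rows of the count table, each on 1 row. All 36 passed the filter on low counts, so none was lost before testing. The lowest count of any member in any library was 860, for Polr1e.

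The libraries came from mouse haematopoietic stem and progenitor cells (HSPCs), a mixed population of immature blood-forming cells. They fall into 3 groups, with 3 libraries from cells overexpressing MN1pQdel, 3 from cells overexpressing MN1, and 1 from cells with no overexpression construct (noTD). MN1 encodes a nuclear cofactor whose high expression drives myeloid leukaemia in mice, and MN1pQdel, which the series text also writes MN1-∆pQ, is by its name MN1 without its polyglutamine stretch. All groups share the medium with IL-3, IL-6 and SCF and a culture of 7 to 9 days before RNA was purified. The labels give no strain, age, vector or promoter, leave the day of each library unstated, and call the source of noTD transduced although its overexpression label reads none.

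Library totals ran from 43025153 to 67728658 counts in MN1pQdel and from 38210660 to 43194988 in MN1, and noTD had 38642911. Levels are given as CPM (counts scaled to a common library size), scaled by TMM over the 7 libraries, and are compared between libraries for a gene, not between genes. Mn1 stood at 404 to 728 CPM in MN1pQdel and 287 to 314 CPM in MN1, against 33.6 CPM in noTD, and the transduced groups thus differed in how many Mn1 counts they had, not in the stretch alone. The progenitor genes Kit (248 to 875 CPM in MN1pQdel, 237 to 431 CPM in MN1, 605 CPM in noTD) and Cd34 (160 to 261, 527 to 650 and 301 CPM in the same order) were present in every library, as were mature granulocyte markers, given below. Flt3, a receptor of early progenitors, was at 0.249 to 7.00 CPM in MN1pQdel, 64.4 to 111 CPM in MN1 and 1.62 CPM in noTD. MN1pQdel replicate 2 stood apart from its group, with eosinophil and mast cell markers far below those of replicates 1 and 3, so results are also given without it. No source used here says whether replicates came from separate animals, so p-values measure the spread between these libraries, which may be technical.

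Making a ribosome starts with transcription of ribosomal DNA by RNA polymerase I. Small nucleolar RNA-protein particles (snoRNPs) then modify the transcript, and large assemblies cut it and fold it into the small and the large subunit. The work takes a large share of a growing cell's resources, and in blood formation it is high in dividing progenitors and declines as granulocytes mature.

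With the replicate block described below, 34 of 36 members and 13.7% of all genes tested were lower in MN1pQdel. Short upstream sequences of 5 of these members, on 5 different chromosomes, are shown as examples, not as a sample of the members. Each is the stretch of 100 bases just before the RefSeq start on GRCm38.p6, written in the direction of transcription, with the E-box (CACGTG) and the ETS motif (CCGGAAG, searched on both strands) in capitals. Gar1 (chr3:129831397-129831496, minus strand) and Polr1c (chr17:46248046-46248145, minus strand) hold the ETS motif and passed the threshold without the block as well. Nop2 (chr6:125131783-125131882, plus strand) and Rrn3 (chr16:13780599-13780698, plus strand) hold an E-box, and Ncl (chr1:86359456-86359555, minus strand), the member with the most counts, also passed without the block and holds neither motif in this stretch.
Gar1: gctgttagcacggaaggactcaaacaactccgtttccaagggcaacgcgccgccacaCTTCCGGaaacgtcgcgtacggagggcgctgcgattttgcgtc
Polr1c: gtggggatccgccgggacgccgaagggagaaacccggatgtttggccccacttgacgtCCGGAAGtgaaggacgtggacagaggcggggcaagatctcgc
Nop2: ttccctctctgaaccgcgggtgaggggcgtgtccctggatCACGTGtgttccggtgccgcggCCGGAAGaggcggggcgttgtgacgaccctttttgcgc
Rrn3: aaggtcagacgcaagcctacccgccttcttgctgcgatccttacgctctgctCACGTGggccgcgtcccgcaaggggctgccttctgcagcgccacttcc
Ncl: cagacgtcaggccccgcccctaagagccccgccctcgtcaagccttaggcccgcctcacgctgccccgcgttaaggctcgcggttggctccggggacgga

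Promoter windows from 250 bases before to 50 bases after a RefSeq start were at hand for 30 of the 36 members, in 38 windows. The E-box, the letters that MYC and related factors recognise, occurred in 6 of the 38 member windows (15.8%), in 9.44% of the 13677 windows of tested genes and in 7.15% of all 32851 windows of that length. The ETS motif occurred in 12 member windows (31.6%), in 16.0% of the windows of tested genes and in 8.86% of all windows. Some genes have several windows, which can overlap and hold the same site. Counted per gene, the ETS motif occurred in 11 of 30 members (36.7%) and 18.7% of tested genes with a window. For the E-box it was 6 of 30 members (20%) and 11.2%. The NRF1 and ZBTB33 motifs occurred in 0 member windows. In windows of tested genes the shares were 1.91% for NRF1 and 0.870% for ZBTB33, and in all windows 0.971% for NRF1 and 0.466% for ZBTB33. The E-box and the ETS motif stood close together in Nop2, with the E-box starting 60 bases and the ETS motif 38 bases before the start. These matches describe letters and say nothing of binding.

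Position within the genome gave another shared feature. According to GENCODE M21, 7 of the 36 members (19.4%) carry annotated snoRNA genes on the same strand inside their own gene, 21 snoRNA genes in all, against 218 of 13706 tested genes with a coding entry (1.59%). The 7 hosts are Nop56, Nop58, Dkc1, Wdr43, Ppan, Ncl and Gnl3, so genes for snoRNP proteins such as Nop56, Nop58 and Dkc1 also carry guide RNAs within their own genes. Poly(A) libraries do not count the snoRNAs themselves. In the comparison described below, 1 of the 7 hosts (14.3%) and 7 of the 29 other members (24.1%) were lower in MN1pQdel without the replicate block, and 7 hosts and 27 other members with it. Of all genes tested, 6.08% were lower without the block and 13.7% with it.

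The central comparison, 3 MN1pQdel against 3 MN1 libraries, asks what differs when MN1 lacks the stretch. Nearly the whole group, which was chosen with earlier results of these data known, was lower in MN1pQdel. The log2 fold change of MN1pQdel over MN1 was negative for 35 of 36 members, with a median of -0.59. The median over all 14808 genes tested was 0.01. Past the threshold (edgeR, p under 0.05 after Benjamini-Hochberg adjustment, BH below, over all genes) were 8 members, all lower: Polr1a, Polr1c, Tcof1, Fbl, Gar1, Nop14, Ncl and Ddx21. The same call held for 6.08% of all genes tested in the lower and 11.1% in the higher direction, and for 0 members in the higher direction. Same-numbered libraries deviated together, and with the replicate number as a block 34 members were lower and 0 higher, against 13.7% of all genes lower and 17% higher. Without MN1pQdel replicate 2, 33 members were lower, against 20.6% of all genes lower and 21.3% higher. That library was the highest of its group for 35 members, so leaving it out lowers the mean of the group for them. Without both libraries numbered 2 it was again 33 members, against 17.4% of all genes lower and 17.4% higher. Leaving out any other single library gave 0 members at an adjusted p under 0.05 by edgeR, where 506 to 941 of all genes passed. At an unadjusted edgeR p under 0.05 were 18 to 29 members and 3762 to 4371 of all genes. The median of the members then ran from -0.66 to -0.50. Scaled by library totals alone, which moves the median of all genes to -0.19, 27 members were lower, against 12.5% of all genes lower and 7.7% higher.

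**Figure D1:**
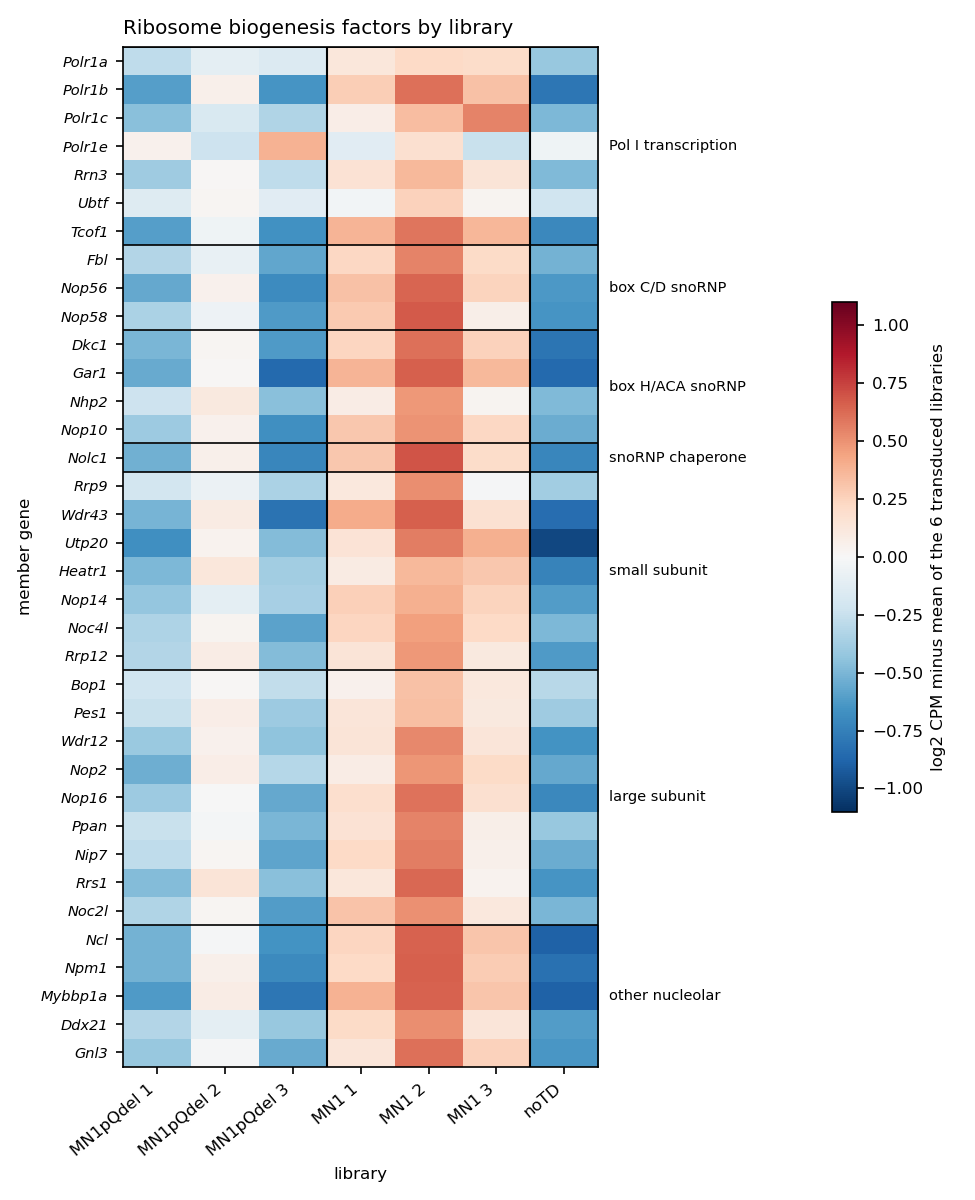
Log2 CPM of the 36 members (rows, by role) in the 7 libraries (columns), minus the mean of the 6 transduced libraries for each gene; blue is lower and red is higher. MN1pQdel replicates 1 and 3 and noTD are the low columns, and MN1pQdel replicate 2 lies between them and MN1. MN1 replicate 2 is the highest library for 34 of 36 members, which was not counted over all genes tested.

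Several other gene lists also differed between the transduced groups, some of them in the other direction from the members. In these bulk libraries fewer cells of a type and less RNA per cell cannot be told apart. Neutrophil markers were higher in MN1pQdel in 12 of 12 genes, with summed levels of 26874 to 37433 CPM in MN1pQdel, 4340 to 7988 CPM in MN1 and 38778 CPM in noTD. Eosinophil markers were higher in 6 of 8, with 234 to 3561 CPM in MN1pQdel, 13.1 to 21.1 CPM in MN1 and 3727 CPM in noTD. Mast cell markers were higher in 6 of 10, with 2819 to 17318 CPM in MN1pQdel, 1479 to 3607 CPM in MN1 and 15062 CPM in noTD. In the eosinophil and mast cell lists MN1pQdel replicate 2 was the lowest library of its group, while it was the highest for the ribosome biogenesis factors. In the neutrophil list the lowest was MN1pQdel replicate 3 (26874 CPM), which was also the lowest of its group for the factors (4470 CPM).

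Progenitor markers were lower in MN1pQdel in 8 of 10 genes and summed to 898 to 1317 CPM in MN1pQdel, 1795 to 2293 CPM in MN1 and 1155 CPM in noTD. Genes of DNA replication and mitosis were called in 0 of 15 by edgeR without the block, with a median log2 fold change of -0.22. Their sums were 3619, 4867 and 3486 CPM in MN1pQdel replicates 1 to 3, against 4541, 5002 and 4389 CPM in MN1 replicates 1 to 3 and 3343 CPM in noTD, with replicate 2 the highest of each group as for the members. Within this list Mcm2, Mcm3, Mcm4 and Mcm7 lay entirely lower in MN1pQdel, for example Mcm7 at 165 to 329 against 338 to 420 CPM. Mki67 lay entirely higher (624 to 830 against 578 to 617 CPM), and the rest overlapped. Of all genes tested, 21.9% lay entirely lower and 21.7% entirely higher. None of these marker lists was counted with the block. Monocyte and macrophage markers were higher in MN1pQdel in 5 of 9 tested genes, erythroid in 1 of 7 and megakaryocyte in 0 of 7, and lymphoid markers were lower in 2 of 4. A single lymphoid marker was at 0 in every library. The part of any of these lists in the levels of the ribosome biogenesis factors was not tested.

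**Figure D2:**
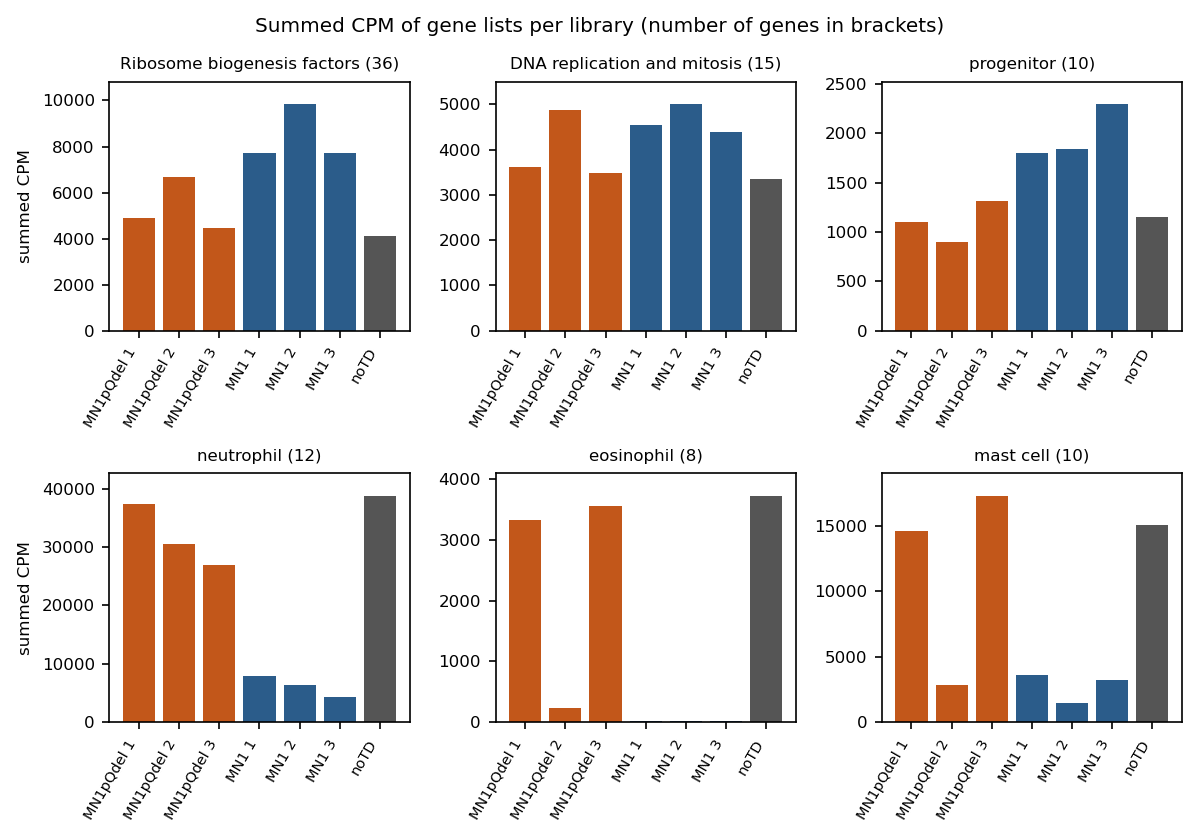
Summed CPM per library of the 36 ribosome biogenesis factors and of 5 lists of other genes, with MN1pQdel in orange, MN1 in blue and noTD in grey; bars start at 0. The factors sum to 4470 to 6696 CPM in MN1pQdel, 7733 to 9838 CPM in MN1 and 4128 CPM in noTD, and neutrophil markers are higher in every MN1pQdel library than in any MN1 library.

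The order of the libraries was similar from member to member. The 3 MN1pQdel libraries lay entirely below the 3 MN1 libraries for 31 members, and 21.9% of all genes tested did so in that direction and 21.7% in the other. Of the MN1pQdel libraries, replicate 2 was the highest for 35 members and replicate 3 the lowest for 26. This order within the group was not counted over all genes tested. The members together took 0.443%, 0.665% and 0.418% of all counts in MN1pQdel replicates 1 to 3, against 0.831%, 1.05% and 0.844% in MN1 replicates 1 to 3 and 0.390% in noTD.

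Taken pair by pair, the difference was similar in size. The median log2 CPM difference of the members, MN1pQdel minus MN1, was -0.58 in pair 1, -0.53 in pair 2 and -0.71 in pair 3, while the median of all tested genes lay between -0.02 and 0.00. In pairs 1 and 3, 35 of 36 members were lower in MN1pQdel, and in pair 2 all 36 were. Lower in 3 of 3 pairs were 35 members, while 34.1% of all genes tested were lower and 33.7% higher in all 3. The difference was thus present within pair 2 although both of its libraries had high levels for their group.

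RNA polymerase I and its factors come first, and here the members differed most among themselves. Of 7 members 3 were lower in MN1pQdel, and 5 with the block, against 6.08% and 13.7% of all genes tested. Tcof1, which encodes the nucleolar protein treacle that supports transcription of ribosomal DNA, stood at 86.2, 127 and 82.5 CPM in the MN1pQdel libraries, against 170.0, 197 and 169 CPM in the MN1 libraries and 80.2 CPM in noTD. Replicates 1 and 3 of MN1pQdel were close to noTD, and replicate 2 lay between them and MN1. The difference, on the log2 scale, was -0.85 (SE 0.18, edgeR BH adjusted p = 0.0273).

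Polr1a encodes the largest subunit of the polymerase. Its levels were 85.2, 95.6 and 93.0 CPM in MN1pQdel, against 113, 120.0 and 118 CPM in MN1 and 77.2 CPM in noTD. Both groups were tight and did not overlap, and a small difference (log2 fold change -0.35, SE 0.09) passed at an edgeR BH adjusted p of 0.0471. Polr1c, a subunit shared with RNA polymerase III, had 27.6, 34.0 and 30.3 CPM in MN1pQdel, against 39.9, 48.1 and 55.7 CPM in MN1 and 27.0 CPM in noTD. Its log2 fold change was -0.63 (SE 0.16, edgeR BH adjusted p = 0.0385).

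Polr1b, the catalytic partner of Polr1a, had 39.2, 62.1 and 38.2 CPM in MN1pQdel, against 72.2, 91.2 and 74.6 CPM in MN1 and 34.4 CPM in noTD. Its difference (log2 fold change -0.76, SE 0.21) came with a wider spread, MN1pQdel replicate 2 standing well above the other libraries of its group, and the edgeR BH adjusted p was 0.0526 unblocked and 0.0135 blocked. Rrn3, the initiation factor that brings the polymerase to the promoter, had a log2 fold change of -0.42 (SE 0.14) and passed with the block (edgeR BH adjusted p = 0.0738 unblocked and 0.0226 blocked).

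A pair of Pol I genes missed the threshold in both fits. Polr1e, which encodes a polymerase-associated subunit, stood at 25.1, 20.8 and 31.7 CPM in MN1pQdel, against 22.3, 27.5 and 20.6 CPM in MN1 and 23.6 CPM in noTD. The groups overlapped throughout, and its log2 fold change of 0.15 (SE 0.20, edgeR BH adjusted p = 0.610) was the one positive value among the members; it turned to -0.054 with library totals alone and to -0.024 without MN1pQdel replicate 3. Ubtf, the upstream binding factor that keeps ribosomal DNA open, stood at 199.5, 224 and 202 CPM in MN1pQdel, against 215, 262 and 224 CPM in MN1 and 189 CPM in noTD. The difference, on the log2 scale, was -0.15 (SE 0.12, edgeR BH adjusted p = 0.364 unblocked and 0.181 blocked).

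**Figure D3:**
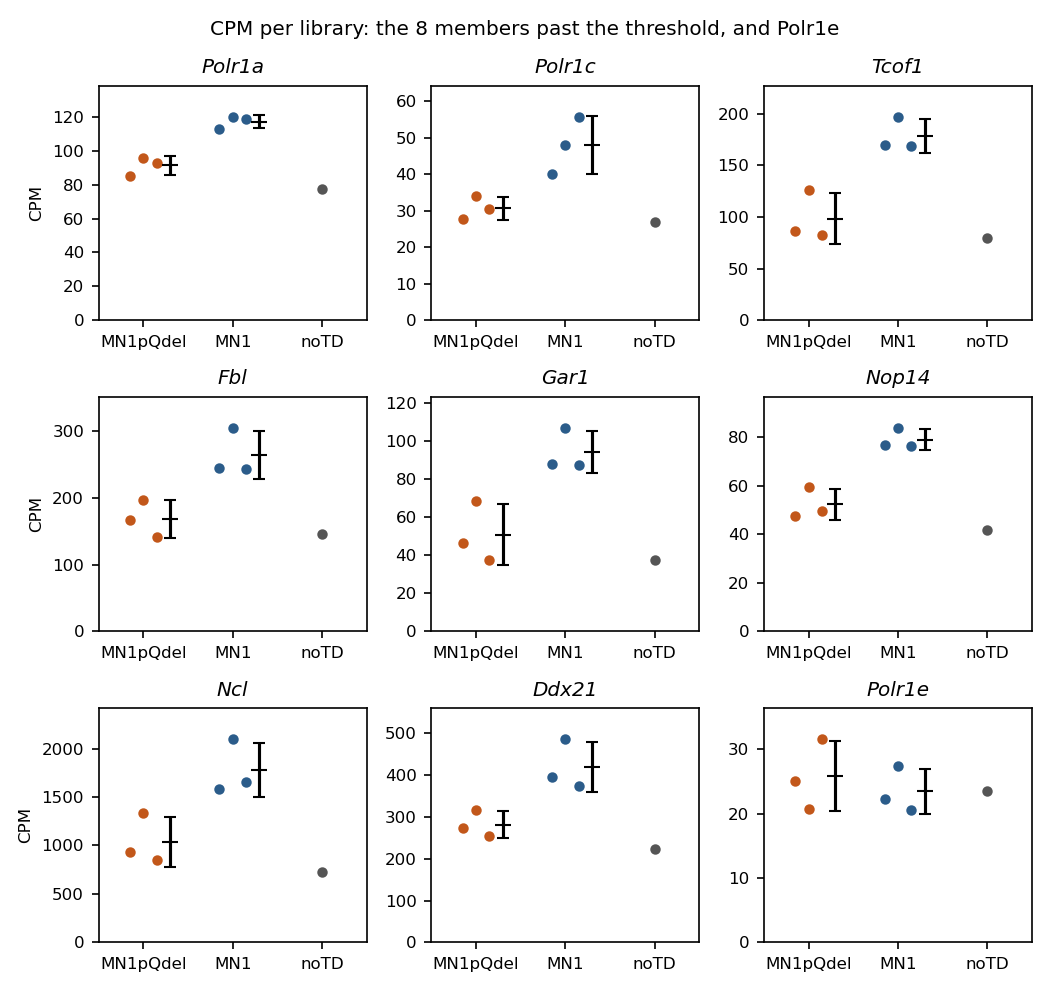
CPM per library (points) with the mean ± SD of 3 libraries (bars) for the 8 members past the threshold and for Polr1e, in MN1pQdel, MN1 and the single noTD library; each axis starts at 0. In the 8 called genes every MN1pQdel point lies below every MN1 point, whereas Polr1e overlaps at 20.6 to 31.7 CPM.

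The box C/D particle adds methyl groups to the ribose of ribosomal RNA. Of its 3 core members 1 was lower in MN1pQdel, and all 3 with the block, where 6.08% and 13.7% of all genes tested were. Fbl encodes fibrillarin, the methyltransferase, and stood at 167, 197 and 141 CPM in MN1pQdel, against 245, 306 and 243 CPM in MN1 and 146 CPM in noTD. The log2 fold change was -0.64 (SE 0.16, edgeR BH adjusted p = 0.0406). In GENCODE M21, 75.4% of the 31-base words of Fbl transcripts also occur in transcripts of Tulp4, so the separate level of Fbl is uncertain. Tulp4 itself stood at 28.1 to 59.4 CPM in MN1pQdel and 20.97 to 27.7 CPM in MN1, a log2 difference of 1.01 (SE 0.29, edgeR BH adjusted p = 0.0558), and the part of shared reads in the Fbl value was not tested.

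Nop56 and Nop58 form the scaffold of the particle. Nop56 had 148, 226 and 136 CPM in MN1pQdel, against 273, 342 and 259 CPM in MN1 and 141 CPM in noTD. For Nop58 the levels were 150.1, 184 and 124 CPM in MN1pQdel, against 233, 304 and 199.7 CPM in MN1 and 121 CPM in noTD. In both genes the highest MN1pQdel library, replicate 2, stayed below the lowest MN1 library. The log2 fold changes of Nop56 (-0.76, SE 0.22) and Nop58 (-0.68, SE 0.21) missed the threshold without the block (edgeR BH adjusted p = 0.0552 and 0.0643) and passed with it (0.0123 and 0.0107).

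The box H/ACA particle converts uridine to pseudouridine in ribosomal RNA, and its proteins also belong to telomerase. Of 4 members 1 was lower in MN1pQdel, and all 4 with the block, against 6.08% and 13.7% of all genes tested. Gar1 (GENCODE M21, chromosome 3, 129824912 to 129831396, minus strand) showed the most negative log2 fold change of all 36 members. It stood at 46.2, 68.7 and 37.6 CPM in the MN1pQdel libraries, against 88.1, 107 and 87.2 CPM in the MN1 libraries and 37.7 CPM in noTD. MN1pQdel replicate 3 was level with noTD, and the group means were 50.8 ± 16.1 CPM for MN1pQdel and 94.1 ± 11.2 CPM for MN1 (SD, n = 3 each). The log2 fold change of -0.88 (SE 0.23, edgeR BH adjusted p = 0.0431) corresponds to a level 45.6% lower than in MN1.

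Dkc1, which encodes the pseudouridine synthase dyskerin, had 83.7, 120.1 and 76.9 CPM in MN1pQdel, against 139.6, 180.0 and 141 CPM in MN1 and 67.8 CPM in noTD. The difference (log2 fold change -0.71, SE 0.20) had an edgeR BH adjusted p of 0.0522 unblocked and 0.0114 blocked. Nhp2, the RNA-binding partner with the most counts among these 4 genes, had 129.7, 164 and 111 CPM in MN1pQdel, against 161, 211 and 155 CPM in MN1 and 108 CPM in noTD. Its groups overlapped through MN1pQdel replicate 2, the log2 fold change was -0.37 (SE 0.19), and the edgeR BH adjusted p was 0.186 unblocked and 0.0264 blocked. Nop10, the smallest protein of the particle, lay between them at -0.65 (SE 0.19).

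Nolc1, a nucleolar phosphoprotein that chaperones snoRNPs, stood at 146, 218 and 128 CPM in MN1pQdel, against 258, 339 and 242 CPM in MN1 and 128 CPM in noTD. MN1pQdel replicate 3 was again level with noTD. Its log2 fold change was -0.76 (SE 0.23, edgeR BH adjusted p = 0.0635 unblocked and 0.0109 blocked).

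Small subunit maturation takes place in the processome, a large particle built on the U3 snoRNP. Of its 7 members 1 was lower in MN1pQdel and all 7 with the block, where 6.08% and 13.7% of all genes tested were. The log2 fold changes ran from -0.78 to -0.41. Nop14, a processome protein (chromosome 5, 34638536 to 34660148), stood at 47.8, 59.5 and 49.8 CPM in MN1pQdel, against 77.0, 84.1 and 76.3 CPM in MN1 and 41.8 CPM in noTD. The spread within groups was small, and its log2 fold change of -0.58 (SE 0.12) had the lowest adjusted p among the members (edgeR, Benjamini-Hochberg, 0.0238).

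Wdr43, another processome protein, had the largest difference of this set. Its levels were 90.5, 137 and 73.2 CPM in MN1pQdel, against 171, 203 and 145 CPM in MN1 and 72.04 CPM in noTD. MN1pQdel replicate 2 came close to MN1 replicate 3, and the log2 fold change of -0.78 (SE 0.25) missed the threshold (edgeR BH adjusted p = 0.0702 unblocked and 0.0131 blocked). Utp20 stood at 49.3, 80.9 and 56.5 CPM in MN1pQdel, against 87.4, 116 and 103 CPM in MN1 and 39.2 CPM in noTD, and its difference on the log2 scale was -0.71 (SE 0.20, edgeR BH adjusted p = 0.0569 unblocked and 0.0131 blocked).

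Heatr1, Noc4l, Rrp9 and Rrp12 completed the small subunit set. Heatr1, a processome protein that also supports Pol I transcription, stood at 87.2, 134 and 94.2 CPM in MN1pQdel, against 130.3, 157 and 150.3 CPM in MN1 and 73.7 CPM in noTD. It was the member of the set whose groups overlapped, through MN1pQdel replicate 2. The log2 fold changes of Noc4l (-0.57, SE 0.17), Heatr1 (-0.46, SE 0.18), Rrp12 (-0.46, SE 0.18) and Rrp9, a protein of the U3 snoRNP (-0.41, SE 0.16), passed with the block at edgeR BH adjusted p between 0.0171 and 0.0341.

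Large subunit maturation had 9 members, of which 0 passed without the block by edgeR and 9 were lower with it. The shares of all genes tested that were lower were 6.08% and 13.7%. Without the block, 8 had an unadjusted edgeR p under 0.05, as did 5590 of all 14808 genes tested. Nop16, a nucleolar protein, had the most negative log2 fold change of this set (-0.63, SE 0.19). It stood at 39.5, 52.1 and 35.3 CPM in MN1pQdel, against 59.2, 79.1 and 59.0 CPM in MN1 and 31.8 CPM in noTD. Noc2l, the most counted member of the set, followed at -0.60 (SE 0.19), with 172, 220.0 and 142 CPM in MN1pQdel, against 269.8, 307 and 236 CPM in MN1 and 154 CPM in noTD. Both missed the threshold without the block (edgeR BH adjusted p = 0.0645 and 0.0672).

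Pes1, Bop1 and Wdr12 work together as the PeBoW complex, which is needed to process the precursor of the large subunit RNA. Their log2 fold changes were -0.36 (SE 0.15) for Pes1, -0.31 (SE 0.12) for Bop1 and -0.52 (SE 0.18) for Wdr12. Bop1 stood at 101, 119 and 98.2 CPM in MN1pQdel, against 122, 147 and 128 CPM in MN1 and 95.6 CPM in noTD, so its groups lay close without overlapping. The remaining members Nop2, an RNA methyltransferase, Ppan, Nip7 and Rrs1 had log2 fold changes between -0.55 and -0.50. Within the set only Rrs1 overlapped between groups.

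The abundant nucleolar proteins and multifunctional factors had negative log2 fold changes throughout. Called lower were 2 of 5 without and 5 of 5 with the block, against 6.08% and 13.7% of all genes tested. Ncl encodes nucleolin, which binds ribosomal RNA and its chromatin (chromosome 1, 86344719 to 86359400, minus strand). It stood at 935, 1335 and 852 CPM in MN1pQdel, against 1586, 2103 and 1654 CPM in MN1 and 727 CPM in noTD, with means of 1041 ± 258 and 1781 ± 281 CPM for MN1pQdel and MN1 (SD, n = 3 each). The difference, on the log2 scale, was -0.77 (SE 0.20, edgeR BH adjusted p = 0.0472). Every MN1 library was above every MN1pQdel library, and noTD was lowest of all.

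Ddx21, an RNA helicase of the nucleolus, had 273, 317 and 255 CPM in MN1pQdel, against 395, 487 and 374 CPM in MN1 and 223 CPM in noTD. Its log2 fold change was -0.56 (SE 0.15, edgeR BH adjusted p = 0.0443). Mybbp1a, a nucleolar regulator of transcription, had the larger difference (log2 fold change -0.84, SE 0.24), with 268, 435 and 237 CPM in MN1pQdel, against 537, 644 and 508 CPM in MN1 and 222 CPM in noTD. MN1pQdel replicate 2 stood far above replicates 1 and 3, and the gene passed with the block (edgeR BH adjusted p = 0.0563 unblocked and 0.0159 blocked).

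Npm1 encodes nucleophosmin, a histone chaperone and assembly factor that is often mutated in acute myeloid leukaemia. It stood at 684, 1019.5 and 603 CPM in MN1pQdel, against 1144, 1548 and 1193 CPM in MN1 and 557 CPM in noTD. The difference, on the log2 scale, was -0.74 (SE 0.23, edgeR BH adjusted p = 0.0645 unblocked and 0.0139 blocked). In GENCODE M21, 35.9% of the 31-base words of Npm1 also occur in other genes, and over 10% did for 8 members (Fbl, Nop56, Pes1, Wdr12, Nip7, Rrs1, Noc2l and Npm1), so their separate levels are less certain. Gnl3, which encodes nucleostemin, a protein known from stem cells, had a log2 fold change of -0.64 (SE 0.18).

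**Figure D4:**
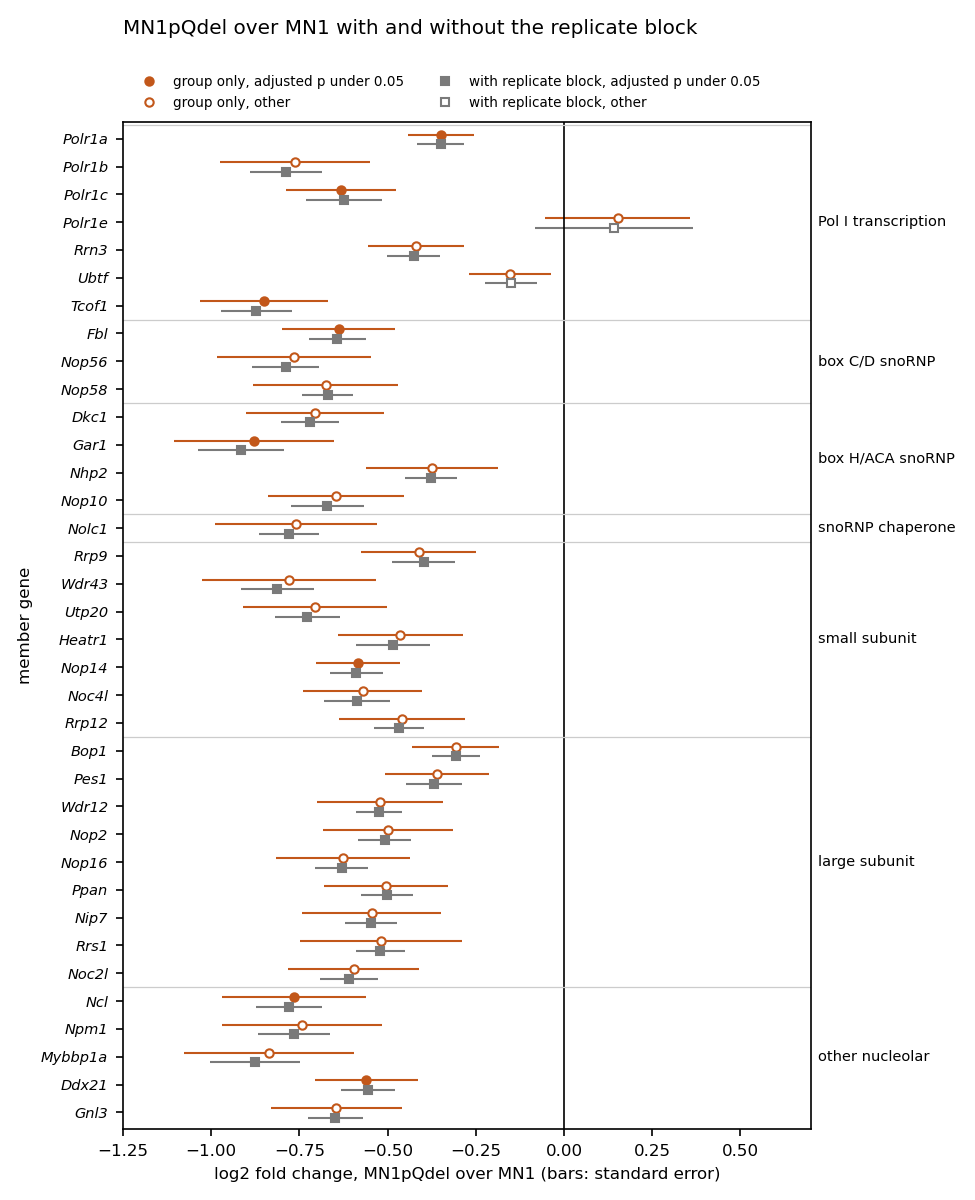
Log2 fold change of MN1pQdel over MN1 for each member, by role, with its standard error, from the fit with group only (circles) and with the replicate block (squares); filled symbols have a Benjamini-Hochberg adjusted p under 0.05 over all genes tested. The estimates barely move between fits, the bars shorten with the block for every member but Polr1e, and 34 members are filled with the block against 8 without it, with Polr1e and Ubtf open in both.

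The rest of the pathway was described from a list of 125 other ribosome biogenesis genes, of which 124 matched a row and were tested. In MN1pQdel 8 of 124 (6.45%) were lower and 0 higher, close to the share of all genes tested in the lower direction (6.08%). With the block 80 were lower and 0 higher, against 13.7% and 17% of all genes tested. Their median log2 fold change was -0.40, and 115 of 124 values were negative. The 5 called genes with the largest differences were Las1l, which takes part in cutting the spacer before the large subunit RNA (-0.73, SE 0.15), Nat10, an RNA acetyltransferase (-0.70, SE 0.18), Rsl1d1 (-0.69, SE 0.18), Ruvbl1, an ATPase that helps snoRNPs assemble (-0.66, SE 0.13), and Nob1, the nuclease that makes the final cut in the small subunit RNA (-0.66, SE 0.12), with edgeR BH adjusted p from 0.0191 to 0.0450. Nob1 stood at 53.7, 60.1 and 48.0 CPM in MN1pQdel, against 79.6, 94.0 and 83.9 CPM in MN1 and 49.3 CPM in noTD.

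By role, the medians of these other genes were -0.53 for 10 snoRNP assembly factors, -0.44 for 51 large subunit factors, -0.38 for 14 RNA-trimming exonuclease genes, -0.34 for 39 small subunit factors and -0.22 for 10 genes of Pol I transcription. With the block 6, 39, 8, 24 and 3 of them were lower, in that order, where 13.7% of all genes tested were. As among the members, Pol I genes had the smallest median.

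The untransduced library places both groups on a common background, without a test because it is a single library used in both comparisons. Called at least 1.5-fold from noTD, 1 of 36 members was higher in MN1pQdel and 0 lower, where 5.31% and 8.94% of all genes tested were. In MN1, 31 of 36 members were higher and 0 lower, where 22.7% and 24.2% of all genes tested were. The median log2 CPM difference from noTD was 0.31 for MN1pQdel and 0.91 for MN1, against 0.04 and 0.05 over all genes tested. The mean of MN1pQdel lay between noTD and the mean of MN1 for 35 members, and noTD was the lowest of all 7 libraries for 26. Neither order was counted over all genes tested.

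Per library the picture was uneven within MN1pQdel. At least 1.5 times the noTD level were 0 members in MN1pQdel replicate 1, 21 in replicate 2 and 0 in replicate 3. In MN1 replicates 1 to 3 it was 27, 34 and 29 members. The share of all genes tested was counted only for the group means above, not per library or with a library left out. The median ratio to noTD was 1.14, 1.53 and 1.07 in MN1pQdel replicates 1 to 3, against 1.74, 2.15 and 1.71 in MN1 replicates 1 to 3. With the group mean taken without 1 MN1pQdel library, the members at least 1.5-fold above noTD were 2 without replicate 1, 0 without replicate 2 and 5 without replicate 3.

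Utp20 was the member past 1.5-fold in MN1pQdel, with log2 differences from noTD of 0.63 in MN1pQdel and 1.37 in MN1. Next in MN1pQdel were Ncl at 0.49 and Heatr1 at 0.48, and next in MN1 were Mybbp1a at 1.33 and Gar1 at 1.31. At the low end were Polr1e (0.11 in MN1pQdel and -0.02 in MN1), Ubtf (0.14 and 0.30) and Bop1 (0.15 and 0.46). Pes1 and Rrp9 lay just under 1.5-fold in MN1, both at 0.58, and Polr1a just over it at 0.60.

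**Figure D5:**
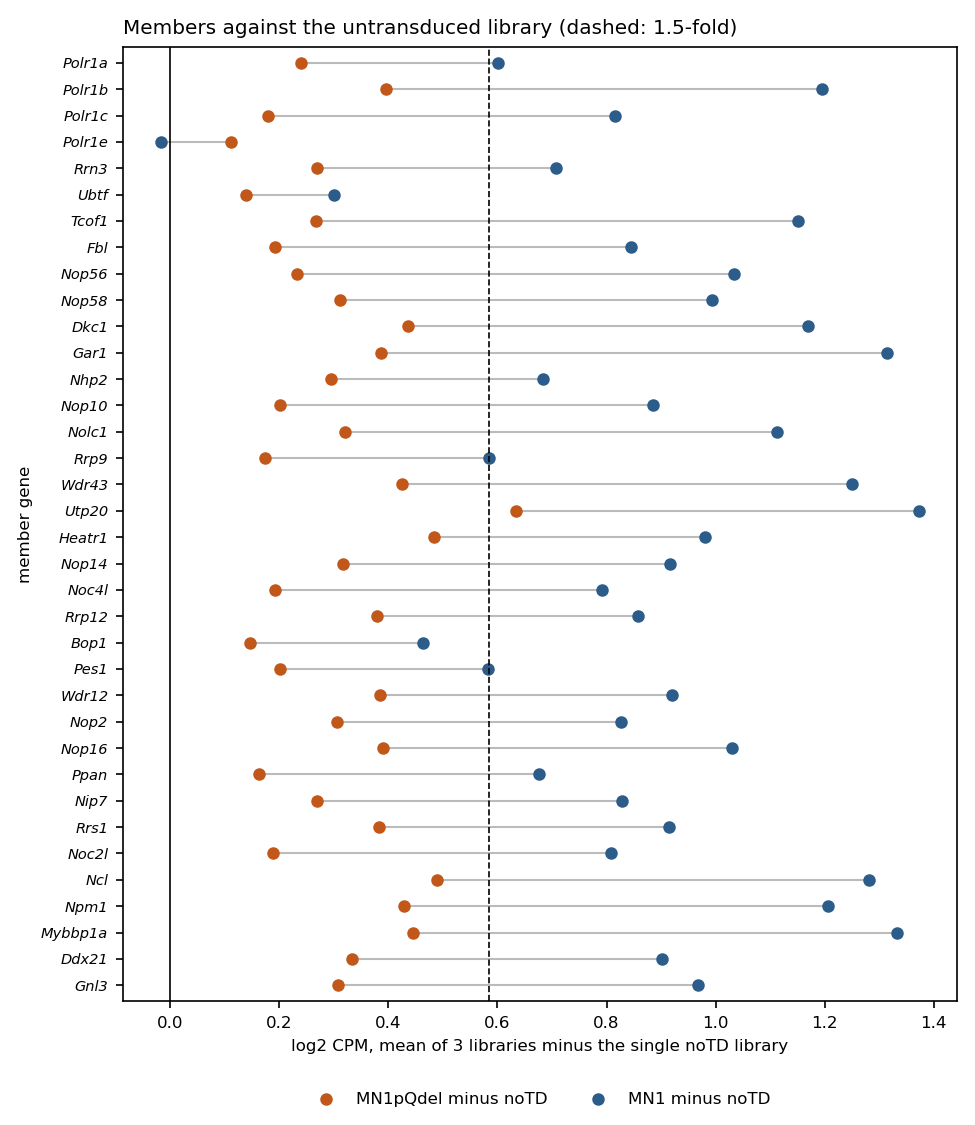
Log2 CPM of the mean of 3 libraries minus the single noTD library for each member, for MN1pQdel (orange) and MN1 (blue), with a dashed line at 1.5-fold. MN1pQdel is past the line for 1 member and MN1 for 31, and Polr1e alone has its MN1 point to the left of its MN1pQdel point.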

How the data were processed

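Poly(A) RNA was read from both ends at 150 bases, per the labels' protocols. For the 7 libraries the authors deposited estimated counts by gene symbol, without normalisation. The submitters' processing notes name kallisto, DESeq2 and GRCm38; no version, transcript index or strand setting is given in these sources. Of all values 32.5% were not whole (tolerance 1e-06), and counts were rounded. In 26 rows, with 0.172% of counts, the symbol had become a calendar date; they stayed in the tests.

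Genes were filtered with filterByExpr on the transduced groups and scaled by TMM. MN1pQdel was tested against MN1 by quasi-likelihood in edgeR 4.0.16 under R 4.3.3, on group alone, and p-values were adjusted after Benjamini and Hochberg over all 14808 genes and a threshold of 0.05. Fold changes are log2 of MN1pQdel over MN1. Differences from noTD are log2 CPM differences with a prior count of 2, with no test. DESeq2 1.42.0 served as an alternative. Coding genes, coordinates, snoRNA genes and shared 31-base words are from GENCODE M21 on GRCm38, and promoters from RefSeq.

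The replicate numbers, taken from the sample titles, were examined as possible pairs: departures from the means of each group correlated across genes at 0.368, 0.259 and 0.320 between libraries of the same number and at -0.282 to -0.0602 between different numbers. All same-number values were above 0.1. Libraries of a number were therefore treated as pairs, on the data and not the labels, and a fit with the number as a block was run. Replicates of a group differed far beyond sampling noise (chi-square per gene 40.3 to 323). Full statistics were planned for called members and, per role, for the 2 with the largest absolute fold change and the most counted one. Members and lists were chosen with earlier results of these data known.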

Additional observations from a re-analysis of the deposited data

How the results depend on the processing

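The median log2 fold change of the members stayed negative in every fit run. It was -0.78 with library totals alone, -0.68 without the replicate 2 pair (with and without the block) and -0.77 to -0.50 with single libraries left out. Against 8 members called by edgeR, library totals alone gave 27, DESeq2 24, the replicate block 34, leaving out the replicate 2 pair 33 and both together 34. Leaving out single libraries gave 0 to 33. The block without the pair leaves few libraries beyond the terms fitted, so its calls lean heavily on variances shared across genes. For all genes, against 2544, library totals alone gave 2987, DESeq2 4351, the block 4545, leaving out the pair 5247, both together 8050, and single leave-outs 506 to 6394. For the other ribosome biogenesis genes, against 8, library totals gave 44, DESeq2 40, the block 80, leaving out the pair 64, both together 97, and single leave-outs 0 to 80. Library totals moved the share of higher calls among all genes to 38.2%, against 64.6% with TMM. Past noTD by 1.5-fold, leaving out single libraries gave 0 to 5 members in MN1pQdel (against 1) and 28 to 33 in MN1 (against 31). By 2-fold, with all libraries, it was 0 in MN1pQdel and 12 in MN1. The share of all genes tested was not counted at 2-fold or with a library left out, so these counts have no background beside them. Polr1e turned to -0.054 with library totals, and single leave-outs gave -0.024 to 0.28. With RLE size factors, no filter on low counts, or noTD in the fit, the count of called members was 9, 11 and 8. Of all genes, 2510, 2466 and 2537 were called in the same order. The cause of these differences was not tested. A single noTD library limits each comparison with it.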
